A study of Homo sapiens with 10 samples.

Results

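The genes examined here encode the factors that start and extend protein chains in the cytoplasm. Probe sets were taken whose platform annotation gives 1 symbol that begins with EIF1 to EIF6, EEF1 or EEF2, without EIF5A, EIF5A2, the EIF4EBP genes and the EIF2AK kinases, and whose deposited value was 25 or more on at least 2 of the 10 arrays. This left 60 of 90 probe sets with such names, for 35 genes, of 4276 tested probe sets and 2819 tested genes on the whole array. RNA came from MOLT-4, a line of human leukaemic T lymphoblasts from a public cell collection, and was hybridized to Affymetrix arrays, which read a transcript with 1 or more sets of short probes. The cells had been treated with MABL, an antibody against CD47, for up to 6 h: 0 h itself, then 0.5, 1, 3 or 6 h, with 2 arrays per time. By the labels all samples, also those of 0 h, carried MABL at 10 ug/mL together with GAM, an abbreviation that is not spelled out, at 50 ug/mL. Arrays of cells left untreated over the same hours were not analysed here, so MABL, GAM, time in culture and handling cannot be told apart. The replicates are not said to be separate cultures. A p-value therefore measures the spread between these samples alone, and that spread may be technical. Precision is limited by the number of arrays.

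Translation begins when eIF2, loaded with GTP and the initiator tRNA, joins eIF1, eIF1A, eIF3 and eIF5 on the small ribosomal subunit, and this complex is brought to the capped mRNA by the eIF4 factors. It then scans to the start codon, where eIF5 triggers GTP hydrolysis, and eIF2B recharges eIF2 for the next round. Elongation uses eEF1A to deliver aminoacyl-tRNAs, the eEF1B subunits to recharge eEF1A, and eEF2 to move the ribosome along. Leukaemic T cells, like other growing cells, express these factors at high levels, and many of their mRNAs begin with a run of pyrimidines, the 5′ terminal oligopyrimidine element, through which growth signals set their translation.

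The start sites of the members were looked at for that element, since it is a feature of sequence that the choice of genes did not use. RefSeq starts (GRCh38.p14) were not found for EEF1D, EIF2S2, EIF3E, EIF3G, EIF3H and EIF3L. The other 29 of the 35 genes had 35 starts in all. Of these starts, 9, in 9 genes, had a run of at least 5 pyrimidines that begins with a C at the annotated start, read on the sense strand only, which is 25.71% of the members' starts and 4.07% of the 35116 starts of all genes. The genes were EEF1A1, EEF2, EIF2D, EIF2S3, EIF3D, EIF3F, EIF3K, EIF3M and EIF4B. The following 6 are shown because they hold the same kind of start but differed in how their RNA moved, as described below. Each line gives the 10 bases before the start and 20 from the start on, 5′ to 3′ on the gene's strand, with the pyrimidine run in capitals.
EEF1A1, chr6:73521013-73521042, minus strand: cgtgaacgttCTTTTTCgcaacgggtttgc
EIF3M, chr11:32583821-32583850, plus strand: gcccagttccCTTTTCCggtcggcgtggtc
EIF4B, chr12:53006446-53006475, plus strand: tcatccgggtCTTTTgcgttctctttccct
EIF3K, chr19:38619178-38619207, plus strand: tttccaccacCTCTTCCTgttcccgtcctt
EIF3F, chr11:7987327-7987356, plus strand: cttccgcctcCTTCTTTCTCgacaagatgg
EEF2, chr19:3985444-3985473, minus strand: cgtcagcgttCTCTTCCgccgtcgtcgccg
A match is a description of these letters and not evidence of control.

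All levels and changes below are on the scale of the square root of a deposited value, taken as log2. The authors do not state a scale, so this one is read from the data, and the sizes depend on it. Over the tested probe sets the 2 replicates of a time correlated at 0.991 to 0.994, and arrays of different times at 0.949 to 0.992. Of 15 T-lineage marker genes, 12 passed the level filter, against 0 of 3 B-cell, 0 of 4 myeloid and 0 of 2 erythroid marker genes that have a probe set. The mean level of the 6 probe sets of 18S ribosomal RNA was 9.03 ± 0.88, 10.44 ± 0.34, 10.68 ± 0.64, 11.20 ± 0.65 and 11.67 ± 0.49 at the 5 times in order (SD, n = 2 arrays), so it moved with time. The 18 probe sets of the hybridization controls stood at 10.00, 10.27, 10.25, 10.76 and 10.63 at the same times. The array medians of the tested probe sets lay lower at the 4 later times than at 0 h, by 0.13, 0.29, 0.31 and 0.25. Over the whole array, without the level filter, the median deposited value was 8.28 and 8.22 at 0 h. It was 8.16 to 8.56 on the later arrays, so the lower medians were not a feature of the whole array. Calls are also given with equal array medians, taken over the tested probe sets, which raises the changes by 0.13, 0.29, 0.31 and 0.25.

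Of the translation factor probe sets, more were called lower than 0 h at 1 h than at any other time. In bulk RNA such as this, fewer cells that hold a transcript and less of it per cell cannot be told apart. At 0.5 h against 0 h, limma called 25 of the 60 probe sets (41.7%) at an adjusted p under 0.05, where it called 17% of all tested probe sets; 2 were higher and 23 lower, against 1.92% and 15.1% of all tested. At 1 h, 35 (58.3%) were called, against 28.4% of all tested; 7 were higher and 28 lower, against 4.14% and 24.2%. At 3 h, 23 (38.3%) were called, against 28.9% of all tested; 1 was higher and 22 lower, against 2.53% and 26.4%. At 6 h, 17 (28.3%) were called, 2 higher and 15 lower, against 25.7% of all tested (4.07% higher and 21.6% lower), so that the members' share was close to the background. The members' median change was -0.25, -0.40, -0.40 and -0.21 at the 4 later times, where that of all tested probe sets was 0.01, -0.03, -0.15 and -0.14. Over all times together, 40 members (66.7%) were called by the F test, against 39.6% of all tested.

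The split between directions moved with the scaling. With equal array medians, 19 members were called higher and 28 lower at 1 h, and 12 higher and 14 lower at 3 h. At 6 h 11 of each were called, and at 0.5 h 4 higher and 24 lower. Among all 4276 tested probe sets, that scaling called 1389 higher and 834 lower at 1 h. At 3 h it called 987 and 760, at 6 h 613 and 603, and at 0.5 h 295 and 656. These counts also stand behind the genes named below as called higher with equal medians. All 28 probe sets called lower at 1 h on the deposited scale were also called lower with equal medians, as were 14 of 22 at 3 h and 11 of 15 at 6 h. A further quantile normalization gave 15 higher and 28 lower members at 1 h, where all tested gave 999 and 874. At 3 h it gave 6 higher and 19 lower, against 777 and 817, and at 6 h 9 and 13, against 477 and 653. Log2 of the deposited values gave 3 higher and 28 lower at 1 h, against 137 and 946. The fall at 1 h thus held for the same probe sets under equal medians, and the small rises of other members depended on the scaling. Single arrays decided several counts: at 0.5 h, 3 members were called with 0 h replicate 1 left out, 16 with 0 h replicate 2 left out and 2 with 0.5 h replicate 2 left out. At 3 h, leaving out 0 h replicate 1 gave 9 calls and leaving out 3 h replicate 2 gave 10, and at 6 h, leaving out 0 h replicate 1 gave 5 and leaving out 6 h replicate 1 gave 8. At 1 h the count stayed between 25 and 36 whichever array was left out. With the 18S level as a covariate, 0, 1, 0 and 0 members were called at 0.5, 1, 3 and 6 h. That level moves with time. In the same order, 18, 28, 7 and 8 members had an unadjusted p under 0.05, against 629, 849, 489 and 429 of all tested. Of all 4276 tested probe sets, 1 was called higher and 8 lower at 0.5 h, and 3 and 84 at 1 h. At 3 h 0 were called either way, and at 6 h 6 were higher and 0 lower. The loss of calls was thus not particular to the members.

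**Figure D1:**
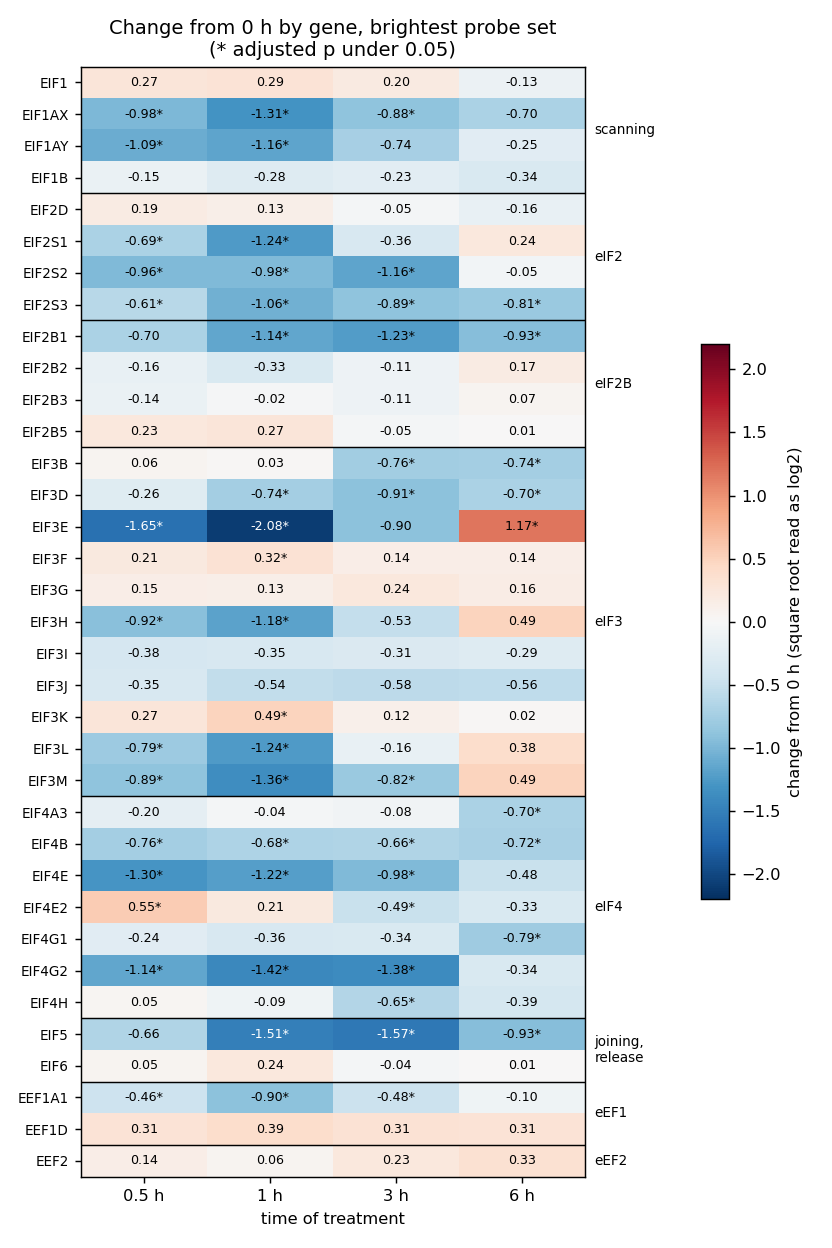
Change from 0 h at 0.5, 1, 3 and 6 h (columns) of the 35 genes (rows, grouped by factor), each by its brightest tested probe set, in units of the square root read as log2; blue is lower and red higher than at 0 h, and a star marks an adjusted p under 0.05 (limma). EIF3E has both the lowest change, -2.08 at 1 h, and the highest, 1.17 at 6 h.

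**Figure D2:**
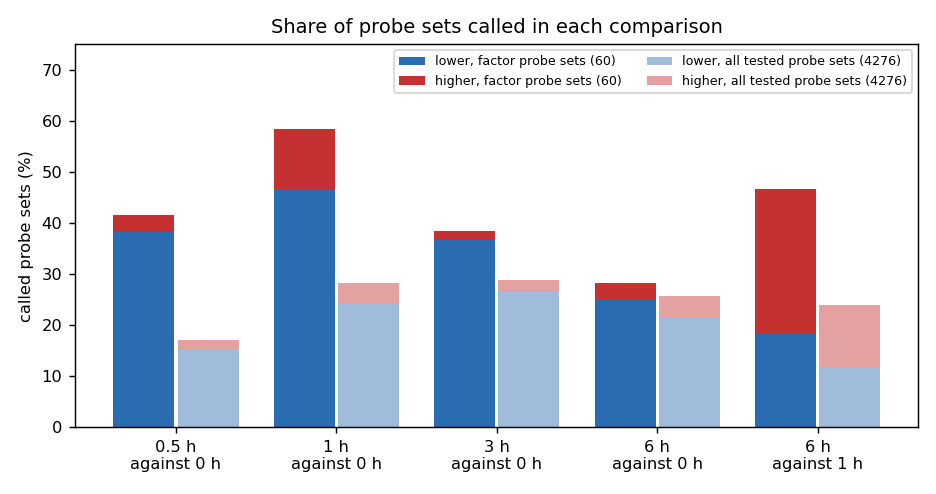
Percent of probe sets called higher (red) or lower (blue) in each comparison, for the 60 factor probe sets (dark bars) and all 4276 tested (pale bars). At 1 h against 0 h, 46.7% of the factor probe sets were called lower, against 24.2% of all tested.

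By gene, with the brightest probe set of each, 18 of the 35 were called at 1 h, 16 lower and 2 higher, against 26.7% of the 2819 tested genes taken the same way (22.6% lower and 4.04% higher). At 3 h 14 were called, all lower, against 28.2% of tested genes (25.8% lower and 2.34% higher). At 0.5 h 14 were called, 13 lower and 1 higher, against 15.5% (13.8% lower and 1.7% higher), and at 6 h 9 were called, 8 lower and 1 higher, against 24.8% (20.4% lower and 4.4% higher). These shares also stand behind the counts of genes per factor group below. Leaving out each array in turn, changing the filter, the floor, the scale or the normalization, and adding the replicate block made 18 alternatives. Under every one of them, 11 of these genes were called at 1 h: EEF1A1, EIF1AX, EIF2S1, EIF2S2, EIF2S3, EIF3D, EIF3E, EIF3L, EIF3M, EIF4G2 and EIF5. At 3 h this was so for 5 of 14 genes, EIF2S2, EIF2S3, EIF3D, EIF4G2 and EIF5, and at 6 h for 2 of 9, EIF3D and EIF4G1. At 0.5 h it was so for 0 of 14 genes. No called change of these genes turned its direction in any of the 18 in which it was computed; with the higher filter, 61 of 70 changes were.

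On the brightest probe set of each, all 3 subunits of eIF2, the complex that carries the initiator tRNA, fell at 0.5 and 1 h. On these sets, 1 subunit was still called lower at 6 h. EIF2S1, the alpha subunit whose phosphorylation slows initiation under stress, stood at 7.13 and 7.04 at 0 h, 6.48 and 6.30 at 0.5 h, 5.84 and 5.84 at 1 h, 6.92 and 6.52 at 3 h, and 7.15 and 7.49 at 6 h. Both arrays of 0.5, 1 and 3 h lay below both of 0 h, and both of 6 h lay above them. EIF2S1 fell by 0.69 after 0.5 h (SE 0.165, adjusted p = 0.0246) and by 1.24 after 1 h (adjusted p = 0.00143). The call at 0.5 h was lost without any 1 array of 0 or 0.5 h and with no filter on low values. On the brightest set, the EIF2S1 changes of -0.36 at 3 h and 0.24 at 6 h were not called. With equal medians the one at 6 h was 0.49 (adjusted p = 0.0233). The other tested EIF2S1 set, 201142_at, was called lower at 3 h (-0.94, adjusted p = 0.0091) and at 6 h (-0.94, adjusted p = 0.0101). That set passed the filter on 3 arrays, both of 0 h among them. EIF2S2, the beta subunit that contacts eIF5 and eIF2B, stood at 8.10 and 7.75 at 0 h, 6.94 and 6.98 at 0.5 h, 6.90 and 6.99 at 1 h, 6.96 and 6.57 at 3 h, and 7.72 and 8.02 at 6 h. Its arrays of 0.5, 1 and 3 h lay below those of 0 h without overlap, and those of 6 h overlapped with 0 h. It fell by 0.96 after 0.5 h (adjusted p = 0.00982), by 0.98 after 1 h (adjusted p = 0.0046) and by 1.16 after 3 h (SE 0.175, adjusted p = 0.00348), and its change at 6 h was -0.05.

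EIF2S3, the gamma subunit that binds GTP and the tRNA, was that subunit. It stood at 7.87 and 7.47 at 0 h, 7.16 and 6.96 at 0.5 h, 6.72 and 6.51 at 1 h, 6.81 and 6.75 at 3 h, and 6.95 and 6.77 at 6 h. No array of a later time reached the lower of the 0 h arrays. EIF2S3 fell by 0.61 after 0.5 h, by 1.06 after 1 h (SE 0.158, adjusted p = 0.00209), by 0.89 after 3 h and by 0.81 after 6 h (adjusted p = 0.00867). The call at 6 h was lost without 0 h replicate 1 and with no filter on low values. The one at 0.5 h was lost in both these cases, without either array of 0.5 h and with a further quantile normalization. Its start has the pyrimidine run. EIF2D, which is no eIF2 subunit but can deliver tRNA to the ribosome without GTP, had changes of -0.16 to 0.19 and was called at none of the times, although with equal medians it was called higher at 1 h (0.41, adjusted p = 0.0412).

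Of the eIF2B subunits, which recharge eIF2 with GTP, EIF2B1, the regulatory alpha subunit, was called and EIF2B2, EIF2B3 and EIF2B5 were not. EIF2B1 stood at 6.73 and 5.95 at 0 h, 5.64 and 5.64 at 0.5 h, 4.97 and 5.43 at 1 h, 5.42 and 4.80 at 3 h, and 5.52 and 5.28 at 6 h. The 0 h arrays were far apart, and every later array lay below both. EIF2B1 fell by 1.14 after 1 h (SE 0.292, adjusted p = 0.0211), by 1.23 after 3 h (adjusted p = 0.017) and by 0.93 after 6 h (adjusted p = 0.049), and each of these calls was lost without 0 h replicate 1, the higher of the 0 h arrays. The call at 1 h was also lost without 1 h replicate 1, and that at 3 h without 3 h replicate 2. The one at 6 h needed every array of 0.5, 1 and 6 h, and was lost with equal medians (-0.69, adjusted p = 0.0628). The other eIF2B subunits had changes from 0 h of -0.33 to 0.27. With equal medians EIF2B5 was called higher at 1 h (0.55, adjusted p = 0.025) and EIF2B2 at 6 h (0.42, adjusted p = 0.0349). EIF2B2 was higher at 6 h than at 1 h by 0.50 (adjusted p = 0.0185).

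Among the factors that keep the ribosome open for scanning, EIF1AX fell and the brightest probe set of EIF1 was not called. EIF1AX, which encodes eIF1A and is on the X chromosome, stood at 8.86 and 8.66 at 0 h, 8.0 and 7.56 at 0.5 h, 7.44 and 7.47 at 1 h, 8.19 and 7.56 at 3 h, and 7.93 and 8.18 at 6 h. Each later array lay below both of 0 h. It fell by 0.98 after 0.5 h, by 1.31 after 1 h (SE 0.225, adjusted p = 0.00387) and by 0.88 after 3 h, and its change of -0.70 at 6 h missed the threshold (adjusted p = 0.0527). EIF1AY, its copy on the Y chromosome, fell by 1.09 after 0.5 h and by 1.16 after 1 h (adjusted p = 0.0177), and probes of this pair may share targets. Without 0 h replicate 2, neither EIF1AY call remained.

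EIF1, which guards the choice of start codon, had its highest mean level at 1 h and its lowest at 6 h on each of its 5 tested probe sets. The brightest probe set stood at 12.84 and 12.99 at 0 h, 13.11 and 13.24 at 0.5 h, 13.21 and 13.20 at 1 h, 13.15 and 13.07 at 3 h, and 12.78 and 12.77 at 6 h. Those of 0.5, 1 and 3 h lay above 0 h and those of 6 h below, in no case with a call against 0 h on the deposited scale. With equal medians it was called higher at 1 h (0.58, adjusted p = 0.00608) and at 3 h (0.51, adjusted p = 0.0158). It was lower at 6 h than at 1 h by a change of -0.43 (adjusted p = 0.0183). In 3 of its 4 further probe sets the changes were called at both times, 0.36 to 0.57 higher at 1 h and -0.66 to -0.61 at 6 h, and with equal medians 1 of the 3 was still called at 6 h (-0.39, adjusted p = 0.0443). EIF1B, a close relative of EIF1, had changes of -0.34 to -0.15 with no call.

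eIF3 is the largest initiation factor, a scaffold on the small subunit, and its subunits did not move together. Of 11 tested subunit genes, 5 were called lower and 2 higher at 1 h, and 4 were not called; with equal medians 5 were lower and 3 higher. EIF3E, EIF3H, EIF3L and EIF3M, which belong to the octamer of subunits with PCI and MPN domains, fell at 0.5 and 1 h and had changes of 0.38 to 1.17 at 6 h. EIF3F and EIF3K, of the same octamer, were called higher at 1 h. EIF3B, EIF3G and EIF3I, which form a module apart from the octamer, were called at neither 0.5 h nor 1 h, although with equal medians EIF3G was called higher at 1 h (0.42, adjusted p = 0.0313). This division of the subunits was made after their values were seen.

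EIF3E changed most. It stood at 7.74 and 7.35 at 0 h, 6.07 and 5.73 at 0.5 h, 5.48 and 5.44 at 1 h, 7.12 and 6.16 at 3 h, and 8.56 and 8.87 at 6 h. The arrays of 0.5, 1 and 3 h lay below both 0 h arrays and those of 6 h above both. EIF3E fell by 1.65 after 0.5 h (adjusted p = 0.00943) and by 2.08 after 1 h (SE 0.294, adjusted p = 0.0017), and rose by 1.17 after 6 h (adjusted p = 0.022). The rise at 6 h was lost without either array of 0 h or of 6 h, and was 1.42 with equal medians (adjusted p = 0.00119).

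EIF3L stood at 10.44 and 10.22 at 0 h, 9.66 and 9.41 at 0.5 h, 9.23 and 8.95 at 1 h, 10.36 and 9.98 at 3 h, and 10.69 and 10.73 at 6 h. It was lower than at 0 h on all arrays of 0.5 and 1 h, overlapped at 3 h and was higher on both arrays of 6 h. It fell by 0.79 after 0.5 h and by 1.24 after 1 h (SE 0.167, adjusted p = 0.00149), and its change at 6 h was 0.38 (adjusted p = 0.13). EIF3M stood at 8.44 and 8.47 at 0 h, 7.64 and 7.49 at 0.5 h, 7.41 and 6.77 at 1 h, 7.93 and 7.33 at 3 h, and 8.95 and 8.93 at 6 h. It had the same order of times, with the arrays of 6 h above those of 0 h. It fell by 0.89 after 0.5 h, fell by 1.36 after 1 h (SE 0.239, adjusted p = 0.00412) and by 0.82 after 3 h, and its change at 6 h was 0.49 (adjusted p = 0.173). EIF3H stood at 8.25 and 7.58 at 0 h, 7.23 and 6.77 at 0.5 h, 6.81 and 6.66 at 1 h, 7.53 and 7.25 at 3 h, and 8.25 and 8.57 at 6 h. Its 0 h arrays were the farthest apart of these subunits, and the later arrays were lower at 0.5 to 3 h. It fell by 0.92 after 0.5 h and by 1.18 after 1 h (SE 0.246, adjusted p = 0.00867), and the call at 1 h needed both 0 h replicate 1 and 1 h replicate 2.

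In these 4 subunits the difference between 6 h and 1 h was larger than the change from 0 h at any time. EIF3E was higher at 6 h than at 1 h by 3.25 (SE 0.294, adjusted p = 0.000409), EIF3M by 1.85 (adjusted p = 0.00144), EIF3H by 1.67 (adjusted p = 0.00258) and EIF3L by 1.62 (adjusted p = 0.000662). All 4 were called under each of the 18 alternatives. The falls of EIF3E and EIF3L at 0.5 h, in contrast, were lost without 0 h replicate 1 or 0.5 h replicate 2. Those of EIF3M at 0.5 and 3 h were lost without any 1 array of 0, 0.5 or 6 h, the one at 3 h also without 3 h replicate 2. With no filter on low values all of these falls lost their call. With equal medians, the 4 subunits were also called higher at 6 h than at 0 h, by 0.63 to 1.42.

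EIF3D, the subunit that can bind the cap itself, fell later and stayed low. It stood at 9.24 and 9.04 at 0 h, 8.89 and 8.87 at 0.5 h, 8.48 and 8.32 at 1 h, 8.26 and 8.21 at 3 h, and 8.38 and 8.50 at 6 h. All later arrays lay below 0 h. It fell by 0.74 after 1 h (adjusted p = 0.00209), by 0.91 after 3 h (SE 0.111, adjusted p = 0.0023) and by 0.70 after 6 h (adjusted p = 0.0042), and these calls held under all 18 alternatives. EIF3B, a scaffold subunit, fell by 0.76 after 3 h (adjusted p = 0.03) and by 0.74 after 6 h (adjusted p = 0.0348) on its brightest probe set, calls lost without either 0 h array, the one at 6 h also without any 1 array of 0.5, 1 or 6 h, and the one at 3 h also without 3 h replicate 2 and with equal medians (-0.45, adjusted p = 0.0525). Neither of its further probe sets was called at 3 h (-0.12 and 0.0030). At 6 h, 1 of them was called lower (-0.57, adjusted p = 0.0226) and 1 was not (-0.11).

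EIF3K, the smallest of the octamer, stood at 10.85 and 10.79 at 0 h, 11.11 and 11.08 at 0.5 h, 11.28 and 11.33 at 1 h, 10.97 and 10.91 at 3 h, and 10.94 and 10.73 at 6 h. Its 1 h arrays were the highest and lay above 0 h. EIF3K rose by 0.49 after 1 h on this brightest probe set (SE 0.103, adjusted p = 0.00911), lost without 1 h replicate 2. Its set 210501_x_at was also called higher at 1 h (0.43, adjusted p = 0.026), and its set 221494_x_at was not (0.27, adjusted p = 0.181). EIF3F stood at 11.06 and 11.04 at 1 h, against 10.75 and 10.72 at 0 h, without overlap. It rose by 0.32 (adjusted p = 0.0438), a call lost without any 1 of the 0, 0.5, 1 or 3 h arrays and with the replicate block. EIF3G, EIF3I and EIF3J were called at no time, with changes of -0.58 to 0.24.

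**Figure D3:**
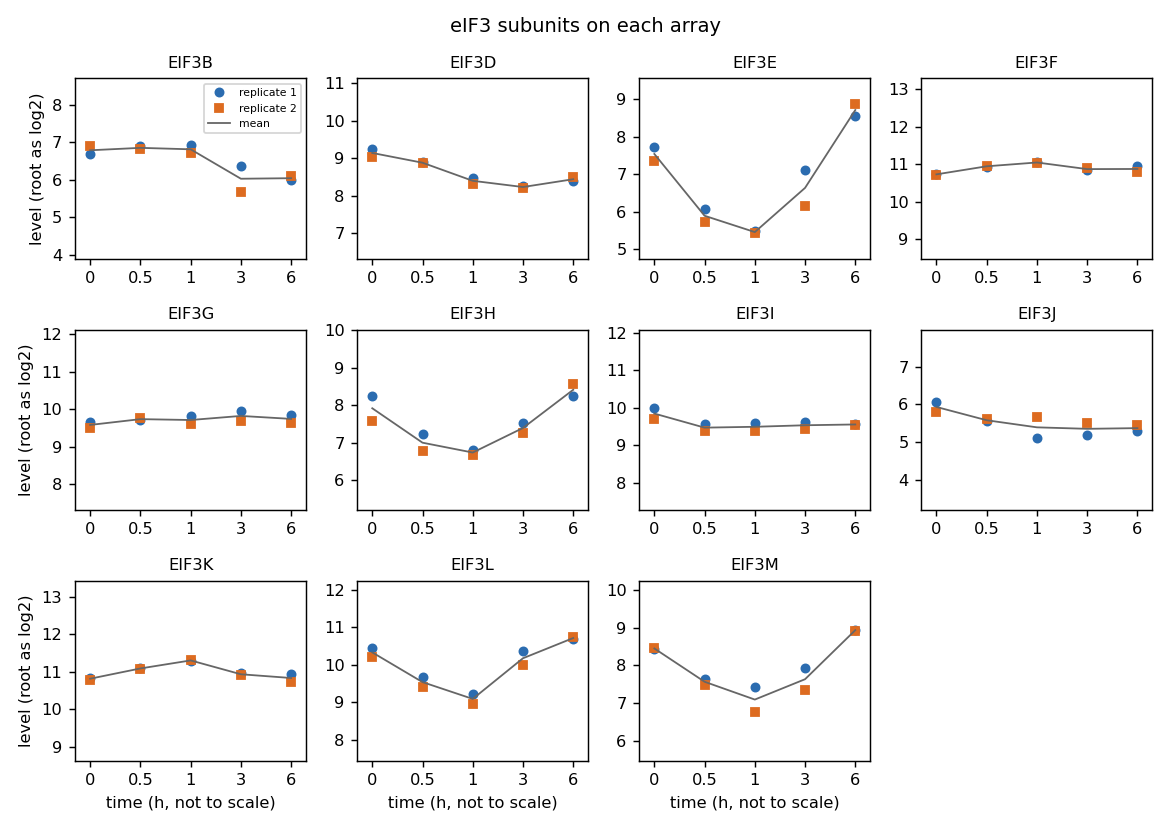
Levels (square root read as log2) of the 11 tested eIF3 subunit genes on each array by time (5 times, not to scale); circles and squares are replicates 1 and 2, the line joins the means, and each panel spans the same range of levels. EIF3E, EIF3H, EIF3L and EIF3M dip at 0.5 and 1 h and return by 6 h, while EIF3D stays below its 0 h level.

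The eIF4 factors bind the cap and unwind the mRNA's leader. Of 7 tested genes, 3 were called lower at 1 h and 4 were not called, and at 3 h 5 were called lower (2 with equal medians). EIF4E, the cap-binding protein, stood at 7.39 and 7.29 at 0 h, 6.27 and 5.81 at 0.5 h, 6.24 and 6.00 at 1 h, 6.48 and 6.24 at 3 h, and 6.51 and 7.19 at 6 h. Both arrays of every later time lay below those of 0 h, and those of 6 h differed most between replicates. EIF4E fell by 1.30 after 0.5 h (SE 0.239, adjusted p = 0.00993), by 1.22 after 1 h (adjusted p = 0.00652) and by 0.98 after 3 h (adjusted p = 0.0186). Each of these calls was lost without 0 h replicate 1, as it was without replicate 2 of its own time, the one at 3 h also without 0 h replicate 2. The change at 6 h was -0.48 (adjusted p = 0.174).

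EIF4G2, also called DAP5, an eIF4G relative that does not bind eIF4E, stood at 8.95 and 8.96 at 0 h, 7.96 and 7.67 at 0.5 h, 7.69 and 7.39 at 1 h, 7.82 and 7.34 at 3 h, and 8.45 and 8.78 at 6 h. It was below 0 h on all later arrays, least so at 6 h. It fell by 1.14 after 0.5 h, by 1.42 after 1 h (SE 0.195, adjusted p = 0.0016) and by 1.38 after 3 h (adjusted p = 0.00295), and the change at 6 h was -0.34 (adjusted p = 0.241). EIF4G1, the main scaffold that joins cap, helicase and eIF3, stood at 8.04 and 8.01 at 0 h, 7.75 and 7.81 at 0.5 h, 7.73 and 7.60 at 1 h, 7.77 and 7.60 at 3 h, and 7.39 and 7.08 at 6 h. Its lowest arrays were those of 6 h, which lay below all others. On this brightest probe set EIF4G1 fell by 0.79 after 6 h (SE 0.128, adjusted p = 0.00464), and its earlier changes of -0.36 to -0.24 were not called. Its other tested set, 208624_s_at, was not called at 6 h (-0.29, adjusted p = 0.305), and its arrays of 6 h overlapped with 0 h.

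EIF4B, which helps the helicase eIF4A, fell early and stayed down on its brightest probe set. That set stood at 9.20 and 8.95 at 0 h, 8.39 and 8.25 at 0.5 h, 8.39 and 8.39 at 1 h, 8.49 and 8.34 at 3 h, and 8.19 and 8.51 at 6 h. All later arrays lay below 0 h, with little difference between later times. Its other 2 sets were lower at 1 h (-1.10 and -2.58), were not called at 6 h against 0 h (-0.41 and -0.0027) and were called higher at 6 h than at 1 h, by 0.69 (adjusted p = 0.035) and 2.58 (adjusted p = 0.00249). On the brightest set the changes were -0.76, -0.68, -0.66 and -0.72 at 0.5, 1, 3 and 6 h (SE 0.141 each, adjusted p = 0.0105, 0.00858, 0.0116 and 0.00898), and each call was lost without 0 h replicate 1. Replicate 2 of 0.5, 1 and 3 h and replicate 1 of 6 h likewise decided the call of their own time, and the one at 3 h was lost with equal medians (-0.34, adjusted p = 0.0575). EIF4E2, a cap-binding relative linked to repression, stood at 6.71 and 6.67 at 0 h, 7.12 and 7.36 at 0.5 h, 7.01 and 6.78 at 1 h, 6.33 and 6.07 at 3 h, and 6.39 and 6.33 at 6 h. It lay above 0 h at 0.5 and 1 h and below it at 3 and 6 h. It rose by 0.55 after 0.5 h (adjusted p = 0.0291) and fell by 0.49 after 3 h (SE 0.138, adjusted p = 0.0306), calls lost without either 0 h array or without replicate 2 of the time itself, and the one at 3 h also with equal medians.

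EIF4A3, a helicase of the exon junction complex rather than of cap binding, stood at 8.54 and 8.33 at 6 h, against 9.22 and 9.04 at 0 h, without overlap. It fell by 0.70 (SE 0.127, adjusted p = 0.00693), a call lost without 0 h replicate 1 (adjusted p = 0.0546). EIF4H, which like EIF4B aids eIF4A, stood at 9.33 and 9.11 at 3 h, against 10.05 and 9.68 at 0 h. It fell by 0.65 (SE 0.143, adjusted p = 0.0127), lost without 0 h replicate 1 or 3 h replicate 2 and with equal medians (-0.34, adjusted p = 0.0656). The probe sets of EIF4A1 and EIF4A2, the helicases of initiation, carry several symbols because small RNA genes lie within them, and were left out with those of EIF3C, EEF1G and EEF1B2.

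EIF5, which makes eIF2 hydrolyse its GTP at the start codon, fell at 1, 3 and 6 h on its brightest probe set. Its brightest probe set stood at 7.75 and 7.55 at 0 h, 7.02 and 6.96 at 0.5 h, 6.19 and 6.10 at 1 h, 6.45 and 5.72 at 3 h, and 6.54 and 6.89 at 6 h. All later arrays lay below 0 h, and those of 1 h below those of 0.5 h. EIF5 fell by 1.51 after 1 h (SE 0.228, adjusted p = 0.00214), by 1.57 after 3 h (adjusted p = 0.0032) and by 0.93 after 6 h (adjusted p = 0.0197). The last call was lost without either 0 h array or 6 h replicate 1. Its set 208708_x_at was called lower at 1 h (-1.07) and 3 h (-1.24) and was not called at 6 h (-0.76, adjusted p = 0.0604). EIF6, which keeps the ribosomal subunits apart until it is released, stood at 8.60 and 8.60 at 0 h, 8.70 and 8.60 at 0.5 h, 8.76 and 8.91 at 1 h, 8.67 and 8.44 at 3 h, and 8.68 and 8.53 at 6 h. Its arrays overlapped with 0 h at 3 and 6 h. No change of EIF6 was called; the one at 1 h was 0.24 (adjusted p = 0.177), and 0.53 with equal medians (adjusted p = 0.0107).

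Of the elongation factors, EEF1A1 fell and returned, while EEF2 and the brightest probe set of EEF1D were not called. EEF1A1, which delivers aminoacyl-tRNA, stood at 14.00 and 13.98 at 0 h, 13.53 and 13.54 at 0.5 h, 13.04 and 13.15 at 1 h, 13.62 and 13.40 at 3 h, and 13.87 and 13.92 at 6 h. Replicates lay close together, the arrays of every later time were below 0 h, and those of 1 h were the lowest. EEF1A1 fell by 0.46 after 0.5 h (adjusted p = 0.0224), by 0.90 after 1 h (SE 0.106, adjusted p = 0.00108) and by 0.48 after 3 h (adjusted p = 0.0126), and its change at 6 h was -0.10. With equal medians the changes at 0.5 h (-0.33) and 3 h (-0.17) were not called, while that at 1 h was -0.61 (adjusted p = 0.00328). The call at 0.5 h was also lost without any 1 of the arrays of 0 or 0.5 h, and that at 3 h without 0 h replicate 1 or 3 h replicate 2. Its 4 probe sets are of the kind that Affymetrix marks as matching several transcripts, so signals of near-identical EEF1A copies cannot be separated.

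EEF2, the translocase, stood at 11.81 and 11.62 at 0 h, 11.93 and 11.79 at 0.5 h, 11.78 and 11.78 at 1 h, 12.04 and 11.86 at 3 h, and 12.16 and 11.94 at 6 h. Its arrays overlapped with 0 h at 0.5 and 1 h and lay above it at 3 and 6 h. No change was called; at 1 h it was 0.06 (SE 0.125) and at 6 h 0.33 (adjusted p = 0.0897), and with equal medians those at 3 h (0.54) and 6 h (0.58) were called. EEF1D, a subunit that recharges eEF1A, stood at 11.50 and 11.58 at 0 h, 11.70 and 11.99 at 0.5 h, 12.02 and 11.83 at 1 h, 11.85 and 11.86 at 3 h, and 11.93 and 11.77 at 6 h on its brightest probe set. Every later array lay above 0 h, with changes of 0.31 to 0.39 that were not called on the deposited scale and were called at 1, 3 and 6 h with equal medians.

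**Figure D4:**
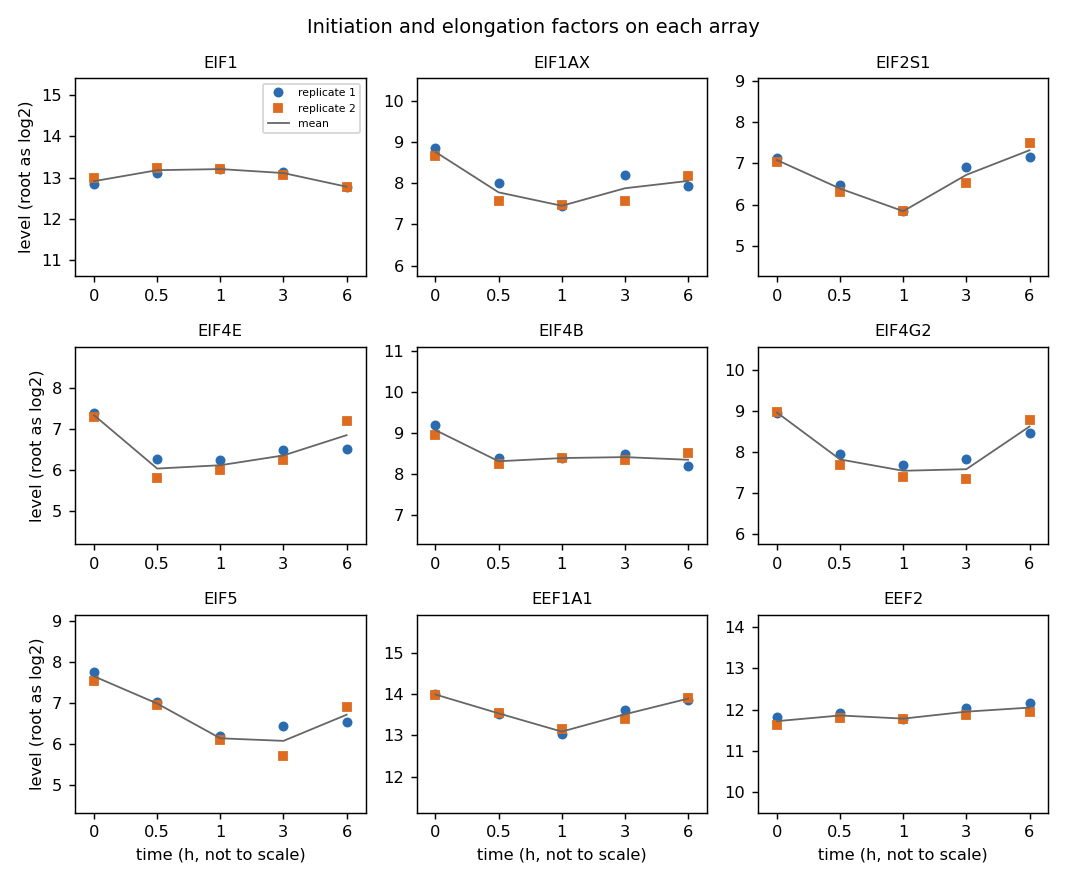
Levels (square root read as log2) of 9 factors on each array by time (5 times, not to scale); circles and squares are replicates 1 and 2, and the line joins the means. By the brightest set of each, EIF2S1 and EEF1A1 are lowest at 1 h and near their 0 h levels at 6 h. EIF4B and EIF5, by their brightest sets, stay below theirs, and EEF2 had no called change on the deposited scale.

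The start sites shown above were held both by genes that fell and by genes that rose at 1 h. Of the 9 genes with the pyrimidine run, 5 were called lower and 2 higher at 1 h, with changes of -1.36 to 0.49 and a median of -0.68, where 22.6% of all tested genes were called lower and 4.04% higher. Of the 20 genes with a start but without the run, 7 were called lower and 0 higher, with changes of -1.51 to 0.29 and a median of -0.34. Genes for which no start was found, among them EIF2S2, EIF3E, EIF3H and EIF3L, which fell at 1 h, are in neither count. EEF1A1 and EIF3M fell and returned, and EIF4B fell and stayed low on its brightest probe set only. EIF3K and EIF3F rose slightly, and EEF2 was not called, although all 6 begin with such a run. The calls of EIF3K and EIF3F were lost without 1 h replicate 2, that of EIF3F also without other single arrays. Of the genes with the run that are not shown, EIF2S3 (-1.06) and EIF3D (-0.74) were called lower at 1 h and EIF2D was not called.

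The comparison of 6 h with 1 h asked which falls were made up. Of the 60 probe sets, 28 (46.7%) were called, 17 higher and 11 lower at 6 h, against 23.9% of all tested (12.2% higher and 11.7% lower), and the members' median change was 0.12, where that of all tested was -0.06. Without 1 h replicate 1 the count was 18, and without 6 h replicate 2 it was 16. Of the 28 members lower at 1 h than at 0 h, 16 (57.1%) were higher again at 6 h than at 1 h and no longer lower than at 0 h; among all 1036 tested probe sets lower at 1 h, this was so for 381 (36.8%). These comparisons share the 1 h arrays. By gene, on the brightest probe set, there were 8 of 16: EIF2S1, EIF2S2, EIF3E, EIF3H, EIF3L, EIF3M, EIF4G2 and EEF1A1. The like share of all tested genes is not given. On these sets EIF2S1 was higher at 6 h by 1.48 (adjusted p = 0.000868), EIF4G2 by 1.08 (adjusted p = 0.00642) and EEF1A1 by 0.80 (adjusted p = 0.0016). The other EIF2S1 set, 201142_at, was still lower than at 0 h at 6 h (-0.94, adjusted p = 0.0101). That set was not called higher at 6 h than at 1 h (0.45, adjusted p = 0.128). Lower than at 0 h at both 1 h and 6 h were 8 (28.6%) of the 28 member sets, against 451 (43.5%) of the 1036 tested probe sets lower at 1 h. By gene, another 5, EIF2B1, EIF2S3, EIF3D, EIF4B and EIF5, were lower at both times on the brightest probe set. For EIF4B this was not so of its other 2 sets, and for EIF5 it was not so of 208708_x_at. The remaining 3, EIF1AX, EIF1AY and EIF4E, were called in neither comparison of 6 h on the brightest probe set. The EIF1AX set 201016_at was higher at 6 h than at 1 h by 1.53 (adjusted p = 0.00784). The EIF4E set 201435_s_at was higher by 1.54 (adjusted p = 0.00983). Neither of these sets was called at 6 h against 0 h.

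The submitters selected probes by fold, asking that both replicates be over 2 times, or both under 0.5 times, the geometric mean at 0 h. On the scale used here, 22 member probe sets passed this rule at 1 h, against 11.6% of all tested; 1 was higher and 21 lower, against 0.21% and 11.4%. At 0.5 h 7 passed, all lower, against 6.1% of all tested (5.99% lower). At 3 h 6 passed, against 6.99%; 1 was higher and 5 lower, against 0.304% and 6.69%. At 6 h 4 passed, against 5.03%, with 2 higher and 2 lower, against 0.935% and 4.09%. With equal medians, 10 members passed as lower at 1 h, and 18 did with a floor at log2 5. The share of all tested is not given for these last counts.

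Several genes were read by more than 1 probe set. Of the 35 genes, 13 had 2 to 5 tested probe sets, 38 in all. At 1 h all probe sets of 7 genes were called lower, those of 3 genes were not called, and 3 genes were mixed; at no time were probe sets of 1 gene called in opposite directions. The 7 include EIF2S1 and EIF5, of which 3 sets passed the filter on at most 3 arrays, both of 0 h among them, so that their admission favoured a lower level later. Without these 3, 25 of 57 member sets were called lower at 1 h. The share of all tested without sets of that kind is not given. The 4 sets of EEF1A1 had changes of -0.90, -0.99, -1.06 and -1.31 at 1 h, and both sets of EIF3M changes of -1.36 and -1.40. Sets of 1 gene can share probes, so they are not independent.

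A direct test of each further probe set against the brightest of its gene, within arrays, called 0, 2, 1 and 1 of 25 pairs at 0.5, 1, 3 and 6 h, where 2.89%, 9.71%, 8.67% and 5.2% of the 865 pairs of the table were called, so that the members' share was at or below the background. At 0.5 h, where limma called 0, 7 of the 25 had an unadjusted p under 0.05, and at 1, 3 and 6 h 7, 6 and 8 did. The like shares of all 865 pairs are not given, so these counts show no excess among the members. The widest gap was in EIF4B at 1 h, where the probe set 219599_at fell by 2.58 and the brightest by 0.68, a difference of -1.90 (SE 0.368, adjusted p = 0.0134). That set stood at 6.73 and 6.17 at 0 h, 4.49 and 4.10 at 0.5 h, 4.47 and 3.27 at 1 h, 5.31 and 5.39 at 3 h, and 6.69 and 6.20 at 6 h. It lay below the filter level on all arrays of 0.5 and 1 h and overlapped with 0 h at 6 h; with a floor at log2 5 its change at 1 h was -1.45. In EIF1AX the set 201016_at fell by 2.09 after 1 h and the brightest by 1.31, a difference of -0.79 (adjusted p = 0.0432).

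EEF1D had the widest gap at 3 h. Its set 214395_x_at stood at 6.84 and 7.47 at 0 h, 8.31 and 8.11 at 0.5 h, 8.43 and 8.18 at 1 h, 8.65 and 8.79 at 3 h, and 8.18 and 8.55 at 6 h. All later arrays lay above those of 0 h. It rose by 1.06, 1.15, 1.57 and 1.22 at 0.5, 1, 3 and 6 h, each called, and at 3 h differed from the brightest set by 1.25 (SE 0.244, adjusted p = 0.0186). Other EEF1D sets had changes of 0.10 to 0.49 with no call. In EIF2S1 the set 201142_at fell by 0.94 after 6 h while the brightest had a change of 0.24, a difference of -1.18 (SE 0.238, adjusted p = 0.0214). That set passed the filter on 3 arrays, both of 0 h among them, and its high level there is what admitted it. The same holds for the EIF5 sets 208290_s_at and 208706_s_at, which passed on the 2 arrays of 0 h only. The number of pair calls depended on the 0 h arrays: in place of 4, it was 0 with replicate 1 of 0 h left out, and leaving out replicate 2 gave 2.

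**Figure D5:**
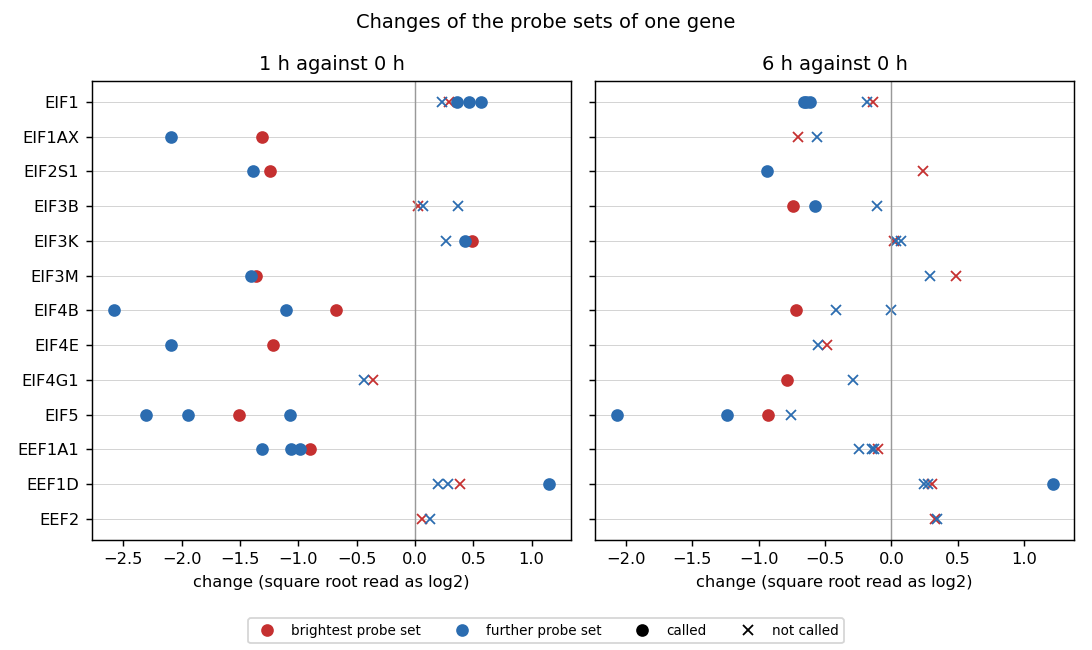
Change from 0 h at 1 h (left) and 6 h (right) of each tested probe set of the 13 genes with more than 1, in units of the square root read as log2; red is the brightest set of a gene and blue a further one, and filled points were called while crosses were not. The sets of EIF4B lie 1.90 apart at 1 h, and 1 set of EEF1D lies apart from its other 3.

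Below the level filter were 30 probe sets with factor names, at levels of 2.01 to 4.93, and 8 genes had no other: EEF1A2, EEF1AKMT2, EEF1AKMT3, EEF2KMT, EIF2B4, EIF3A, EIF4ENIF1 and EIF5B. The closest to passing was a set of EIF5B, which reached 4.93, and the dimmest that passed was EIF5 208706_s_at, which reached 5.39. Of 11 probe sets with several symbols, 10 were past the filter and left out.

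Other genes of translation were counted from lists of 36, of which 15 were tested. Called higher and lower were 1 and 4 at 0.5 h, 1 and 6 at 1 h, 1 and 7 at 3 h, and 2 and 3 at 6 h. Of all tested genes, 1.7% and 13.8%, 4.04% and 22.6%, 2.34% and 25.8%, and 4.4% and 20.4% were called higher and lower at those times, so that the share lower at 6 h was close to the background. Lower at 1 h were ABCE1, which recycles ribosomes (-1.55, adjusted p = 0.00305), GSPT1, a release factor (-0.83), PABPC1 (-0.76) and PAIP1 (-0.86), which bind poly(A) and its binding protein, DENR, which aids reinitiation (-1.76), and RPS6, a protein of the small subunit (-0.99, adjusted p = 0.00159). The ABCE1 set passed the filter on 3 arrays and averaged 3.43 at 1 h and 4.98 at 0 h, both under the filter level, so the size of its change is uncertain. The change of RPS6 at 6 h was 0.08. EIF5A, an elongation factor for difficult peptide bonds that the choice of genes left out, rose at all later times, by 0.98, 0.90, 0.96 and 0.86 at 0.5, 1, 3 and 6 h. MKNK2, a kinase of eIF4E, stood at 9.35 and 9.29 at 6 h, against 7.23 and 7.70 at 0 h, and rose by 1.85 (SE 0.162, adjusted p = 0.000623). Neither tested mitochondrial factor, TSFM nor TUFM, was called at any time.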

How the data were processed

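Levels were the authors' deposited scores, 1 per probe set and array, from GCRMA, per the submitters' processing notes. That method subtracts background by probe sequence, puts the arrays on a common scale and merges each set's probes. The version, scale and later steps are not given in the sources used here. Scores ran from 1.25e-05 to 238.1, and their square roots, up to 15.43, were read as log2. The 68 control probe sets were left out of tests. Probe sets with a deposited score of 25 or more on at least 2 arrays were tested.

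Differences were tested with lmFit and eBayes of limma 3.58.1, run in R 4.3.3 (5 residual and 3.06 prior degrees of freedom, prior SD 0.139) over the 10 arrays, time being the single factor, Benjamini-Hochberg adjusted over all 4276 tested probe sets. Pairs were tested as within-array differences over all 865 pairs. The procedure was tested on simulated data. Values on every array are given for up to 3 genes per factor group with the highest F, 12 genes of the core machinery and genes with called pairs; EIF3B, EIF3F, EIF3H, EIF3K, EIF3M, EIF4A3 and EIF4H were added after their values were seen, and EIF1AY is given as changes. Members and lists were chosen with earlier results of these data known. Alternatives were other scales, normalizations, filters, a floor, a replicate block, covariates, the fold rule and leaving out each array.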

Additional observations from a re-analysis of the deposited data

How the results depend on the processing

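Of 70 called changes of the 35 genes, 0 reversed where an alternative gave a value; the covariates were run for counts alone, the higher filter held 61 of the changes and the fold rule 55. The fold rule did not select 40 of its 55, 36 lost their call with no filter on low values, 35 without 0 h replicate 1, 20 without 0.5 h replicate 2 and 1, EIF3F at 1 h, with the replicate block. Counts of called members moved by over 1.5 times as follows. With no filter there were 5, 9 and 7 at 0.5, 3 and 6 h, 16 for 6 h against 1 h, 17 by the F test and 0 pairs; more probe sets are tested then. With the 18S level as a covariate there were 0, 1, 0 and 0 at 0.5, 1, 3 and 6 h and 26 by the F test. With the hybridization controls as a covariate there were 3, 0 and 0 at 0.5, 3 and 6 h, and 17 for 6 h against 1 h. In the first 3, 28, 11 and 12 had an unadjusted p under 0.05. All tested probe sets gave 14 higher and 220 lower at 0.5 h, 0 of either at 3 h, and 10 and 11 at 6 h. For 6 h against 1 h they gave 300 and 163. The submitters' fold rule gave 7, 22, 6 and 4. The 4 called pairs became 7 on untransformed values and 8 with the floor. The cause was not tested. Leaving out each array in turn gave 2 to 27 members at 0.5 h, 25 to 36 at 1 h, 9 to 29 at 3 h, 5 to 19 at 6 h, 16 to 31 for 6 h against 1 h, 29 to 40 by the F test and 0 to 5 pairs. Replicate numbers shared only a number: deviations of the same number correlated at -0.23 to 0.15, with 2 of 10 pairs of times over 0.1. With the replicate block 26, 35, 27, 19 and 28 members were called at 0.5, 1, 3, 6 h and for 6 h against 1 h.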
